A study of Mus musculus with 10 samples.

Results

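A set of 9 genes known from other work to respond to androgen was followed across sorted cells of the mouse prostate: Fkbp5, Tmprss2, Slc45a3, Steap4, Herc3, Ndrg1, Acsl3, Abcc4 and Camkk2. They were a fixed list of names, matched to the deposited transcripts by position on mm10, and all 9 of 9 were found among the 24537 genes of the table. RNA had been sequenced from prostate cells of C57BL/6 mice aged 8 to 12 weeks, depleted of cells that carry lineage markers (Lin-) and sorted on 3 surface proteins, CD24, CD49f and Sca-1. Stromal cells (CD24- and CD49f-) gave 2 libraries and basal cells (CD24low and CD49fhigh) gave 2. Luminal cells (CD24high and CD49flow) gave 3 libraries from the Sca-1+ gate and 3 from the Sca-1- gate. No genotype or drug treatment separates the groups. The labels also carry, for all 10 libraries, a culture protocol with dihydrotestosterone (DHT, the strongest natural androgen) in the medium, and they do not say whether the sequenced cells had been cultured, so no statement about androgen exposure can be made. The labels do not say how many mice gave a library or whether libraries of a gate came from separate mice, so the p-values measure the spread between these libraries, which may be technical.

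Androgens such as testosterone and DHT act as steroid hormones that change transcription in the nucleus, with the help of Hsp90 chaperones and of pioneer factors such as Foxa1, Gata2 and Hoxb13, which open chromatin. In the prostate they sustain the secretory program of luminal cells, and androgen action in the stroma supports growth of the gland. Most of the target genes listed here were defined in human prostate cancer cell lines, and several of them also respond to other signals: Fkbp5 is also induced by glucocorticoids, Ndrg1 is a classical hypoxia and stress gene, and Steap4 responds to inflammatory and metabolic cues.

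The promoters of the members are shown first for the pair with the most similar profile, Tmprss2 and Slc45a3, for Steap4, which had an opposite profile, and for the single member start site with a steroid response half-site. Each line gives the 250 bases before a RefSeq start site on GRCm38.p6 (the assembly of mm10), 5′ to 3′ on the strand of the gene. Capitals mark matches on either strand to AGAACA (the half-site of steroid hormone response elements, TGTTCT on the other strand), GGGCGG (a GC box, CCGCCC on the other strand) or TATAAA (a core promoter element, read as TTTATA on the other strand). The windows are chr16:97611196-97611445 on the minus strand for Tmprss2, chr1:131962665-131962914 on the plus strand for Slc45a3, chr5:7960222-7960471 on the plus strand for Steap4 and chr14:118676932-118677181 on the minus strand for the second Abcc4 start.
Tmprss2: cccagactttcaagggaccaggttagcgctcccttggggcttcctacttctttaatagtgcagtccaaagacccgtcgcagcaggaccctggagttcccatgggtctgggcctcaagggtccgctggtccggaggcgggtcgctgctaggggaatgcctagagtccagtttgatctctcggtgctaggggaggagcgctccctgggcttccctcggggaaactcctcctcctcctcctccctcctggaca
Slc45a3: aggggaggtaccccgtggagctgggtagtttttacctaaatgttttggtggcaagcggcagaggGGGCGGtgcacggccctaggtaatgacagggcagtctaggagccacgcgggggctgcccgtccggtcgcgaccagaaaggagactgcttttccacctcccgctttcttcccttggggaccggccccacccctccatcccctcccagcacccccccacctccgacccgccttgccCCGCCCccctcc
Steap4: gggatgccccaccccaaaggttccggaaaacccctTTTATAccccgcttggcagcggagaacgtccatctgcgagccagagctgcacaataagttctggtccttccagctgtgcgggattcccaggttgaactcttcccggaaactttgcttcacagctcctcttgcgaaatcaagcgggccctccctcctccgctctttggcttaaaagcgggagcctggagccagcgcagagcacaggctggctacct
Abcc4, second start: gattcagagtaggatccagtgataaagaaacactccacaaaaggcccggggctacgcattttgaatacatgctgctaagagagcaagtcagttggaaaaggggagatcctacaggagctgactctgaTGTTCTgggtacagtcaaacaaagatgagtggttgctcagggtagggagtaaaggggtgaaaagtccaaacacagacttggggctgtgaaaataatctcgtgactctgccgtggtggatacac

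Across the 10 promoters of the 8 members with an entry (Ndrg1 has none in the table), AGAACA was found in 1, GGGCGG in 5 and TATAAA in 2. Among all 32851 RefSeq mouse promoters of the same length, the shares were 16.1% for AGAACA, 32.7% for GGGCGG and 12.4% for TATAAA. The full palindrome, a half-site and its reverse complement 3 bases apart, stood in 0 of the 10 and in 0.00913% of all promoters. The single half-site lay 123 bases before the second Abcc4 start, whose transcript was listed at 0 in every library. The Tmprss2 window held none of these letters and the Slc45a3 window held 2 GC boxes. The Steap4 window held 1 match to TATAAA, on the other strand and near the end of the window far from the start site. These are matches of letters, and say nothing of whether a factor binds there or elsewhere.

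The libraries held 20.2 to 27.2 M mapped fragments, read from the steps between low values (M is mega). Values below are FPKM (fragments scaled to transcript length and to the mapped fragments of the library), so levels of different genes can be set side by side. Some marker sums followed the gates: 5 basal markers summed to 2659 and 2711 FPKM in basal libraries, against 10 to 208 elsewhere, and 4 secretory genes summed to 135851 to 167305 FPKM in Sca-1- luminal libraries, against 2324 to 19635 elsewhere. General luminal markers did not separate basal from luminal cells: the 6 genes summed to 2915 and 4290 FPKM in basal libraries, within the 1833 to 8253 of the luminal libraries, against 100.1 and 395 in stromal libraries. Fibroblast genes were not confined to the stromal gate. The 6 fibroblast markers summed to 6780.3 and 4992 FPKM in stromal libraries, 682 and 492 in basal libraries, 4736, 2320.1 and 328 in Sca-1+ luminal libraries, and 96.4, 75.3 and 132 in Sca-1- luminal libraries. None of the 6 was at 0 in any library. Across genes, which are not independent, the Pearson's r of log2(FPKM + 1) of Sca-1+ luminal library 1 was 0.916 and 0.915 with the stromal libraries and 0.84 with library 3 of its own gate. Results for members and listed genes that rest on Sca-1+ luminal libraries are therefore also given with library 3 alone in its gate. The spread of that gate is then borrowed from the other gates.

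Differences were tested with limma on log2(FPKM + 1) over 12466 genes, and each p below is adjusted by the Benjamini-Hochberg method over all of them. A gene is called higher or lower at an adjusted p under 0.05. All 9 members passed the filter of 1 FPKM in at least 2 libraries. The scale understates differences of low genes such as Herc3 and Abcc4. These gates are bulk samples, in which fewer cells of a type and less RNA per cell cannot be told apart.

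The members showed 2 profiles. Tmprss2, Slc45a3, Abcc4, Fkbp5, Acsl3 and Herc3 had their highest mean in a luminal gate and their lowest in stromal or basal cells. Steap4, Ndrg1 and Camkk2 had their lowest mean in Sca-1- luminal cells, the gate with the secretory genes.

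**Figure D1:**
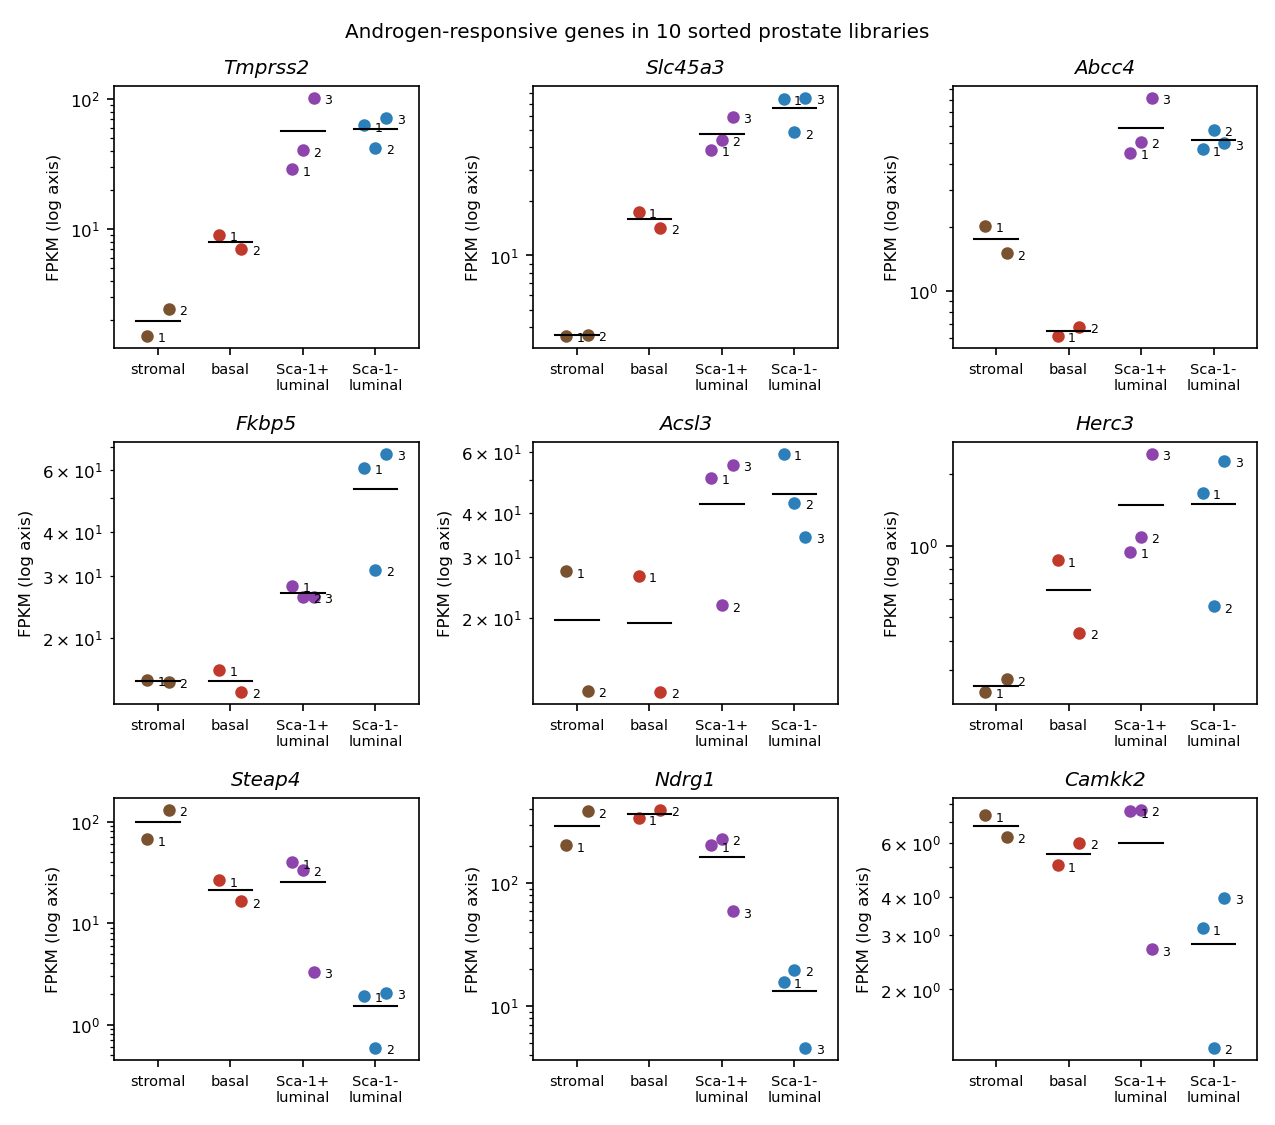
FPKM (log axis) of the 9 androgen-responsive genes in each sorted library, by gate; points are libraries, numbered as in the text, and bars are gate means. Tmprss2 and Slc45a3 climb from stromal to luminal gates, while Steap4 and Ndrg1 are at their lowest in the 3 Sca-1- luminal libraries.

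Tmprss2 (ENSMUSG00000000385.8, chromosome 16, 97564682 to 97611195, minus strand) encodes a transmembrane serine protease on the apical side of luminal cells and is one of the best known androgen targets of the human prostate. It had 1.51 and 2.44 FPKM in stromal libraries, 9 and 7.03 in basal libraries, 28.8, 40.4 and 102 in Sca-1+ luminal libraries and 62.8, 41.9 and 71.9 in Sca-1- luminal libraries. Every luminal library was above every basal library, and every basal library above both stromal ones, while the luminal gates overlapped. The gate means were 1.98 ± 0.657 in stromal (SD, n = 2), 8.02 ± 1.4 in basal (SD, n = 2), 57 ± 39.3 for the Sca-1+ luminal gate (SD, n = 3) and 58.9 ± 15.4 for the Sca-1- luminal gate (SD, n = 3). Stromal cells had 0.0336 times the Sca-1- luminal mean and 0.0346 times the Sca-1+ luminal mean, with log2 differences of -4.31 ± 0.469 (SE, adjusted p = 0.00013) and -4.10 ± 0.469 (SE, adjusted p = 0.000985). Basal cells were lower than Sca-1- luminal cells by a log2 difference of -2.70 ± 0.469 (SE, adjusted p = 0.00138) and lower than Sca-1+ luminal cells by -2.49 ± 0.469 (SE, adjusted p = 0.00677). Between the luminal gates the difference was -0.22 (95% interval -1.16 to 0.72, adjusted p = 0.705), which was not called. The stromal against basal difference of -1.61 was just past the threshold (adjusted p = 0.0497) and was lost in 8 of the 10 fits that each left out 1 library. The basal against Sca-1+ luminal call was lost without basal library 2 (-2.33, adjusted p = 0.072) and with just those gates in the fit (adjusted p = 0.0539), and with library 3 as the sole Sca-1+ luminal library it was -3.52 (adjusted p = 0.000896), while the stromal difference was -5.13 (adjusted p = 0.00015). A transcript of 3161 nt held 86% or more of the Tmprss2 FPKM in every library.

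Slc45a3 (ENSMUSG00000026435.15, chromosome 1, 131962967 to 131982969, plus strand), which encodes prostein, a sugar transporter family protein that marks prostate epithelium in humans, followed Tmprss2 closely. It had 3.56 and 3.62 FPKM in stromal libraries, 17.5 and 14.2 in basal libraries, 38.7, 43.8 and 59.2 in Sca-1+ luminal libraries and 74.1, 48.3 and 75.2 in Sca-1- luminal libraries. The order of the gates was the same as for Tmprss2, again with overlap only between the luminal gates. The log2 difference from Sca-1- luminal cells was -3.84 ± 0.269 in stromal cells (SE, adjusted p = 2.38e-05) and -1.97 ± 0.269 in basal cells (SE, adjusted p = 0.000379). From Sca-1+ luminal cells it was -3.37 in stromal cells (adjusted p = 0.0004) and -1.50 in basal cells (adjusted p = 0.00546). Stromal cells were also lower than basal cells, at -1.87 ± 0.295 (SE, adjusted p = 0.00266), so Slc45a3 separated stromal from basal cells by 3.59 ± 0.0461 against 15.8 ± 2.37 FPKM (SD, n = 2 each). Its basal against Sca-1+ luminal call was lost without basal library 2 (-1.36, adjusted p = 0.0696). These differences were -3.71 in stromal (adjusted p = 0.000213) and -1.85 in basal cells (adjusted p = 0.00939) with library 3 alone in the Sca-1+ gate. The luminal gates differed by -0.46 (95% interval -1.0 to 0.07, adjusted p = 0.154). Under median-of-ratios scaling this difference was -0.64 and was called (adjusted p = 0.0363), as it was with estimated library weights (-0.65, adjusted p = 0.00965), and it was -0.12 with library 3 alone in the Sca-1+ gate.

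Abcc4 (ENSMUSG00000032849.14, chromosome 14, 118482692 to 118706219, minus strand) encodes an efflux pump for cyclic nucleotides, prostaglandins and steroid conjugates. It had 2.03 and 1.51 FPKM in stromal libraries, 0.615 and 0.682 in basal libraries, 4.49, 5.05 and 8.15 in Sca-1+ luminal libraries and 4.66, 5.77 and 4.98 in Sca-1- luminal libraries. Basal cells were thus the lowest gate, with both libraries under 1 FPKM, and no luminal library reached down to a stromal or basal one. The basal log2 difference was -1.89 ± 0.269 from Sca-1- luminal cells (SE, adjusted p = 0.000477) and -2.03 ± 0.269 from Sca-1+ luminal cells (SE, adjusted p = 0.00153). Stromal cells were lower than Sca-1- luminal cells by -1.15 ± 0.269 (SE, adjusted p = 0.00586) and lower than Sca-1+ luminal cells by -1.29 ± 0.269 (SE, adjusted p = 0.013). The stromal against Sca-1+ luminal call was lost when either stromal library was left out (adjusted p = 0.0681 and 0.0958) and under quantile normalization (-1.0, adjusted p = 0.0595). The differences from the Sca-1+ gate with library 3 alone in it were -1.73 in stromal (adjusted p = 0.00281) and -2.47 in basal cells (adjusted p = 0.00139). The stromal against basal difference of 0.74 was not called (adjusted p = 0.103), although the libraries did not overlap. All of the Abcc4 signal sat in 1 transcript of 5729 nt, on 81 to 1111 fragments per library.

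Fkbp5 (ENSMUSG00000024222.17, chromosome 17, 28399094 to 28517527, minus strand) encodes an Hsp90 co-chaperone of steroid receptors that is induced by androgen and by glucocorticoid. It had 15.2 and 15 FPKM in stromal libraries, 16.2 and 14 in basal libraries, 28.1, 26.1 and 26.1 in Sca-1+ luminal libraries and 60.9, 31.2 and 66.7 in Sca-1- luminal libraries. The stromal and basal values could not be separated (0.00, 95% interval -0.74 to 0.74), the Sca-1+ luminal libraries lay above them and the Sca-1- luminal libraries lay above those. The differences from Sca-1+ luminal cells were not called, at -0.79 in both basal (adjusted p = 0.0939) and stromal cells (adjusted p = 0.115). The difference from Sca-1- luminal cells was -1.67 ± 0.303 in both stromal (SE, adjusted p = 0.00162) and basal cells (SE, adjusted p = 0.00171). Fkbp5 was also the sole member called lower in Sca-1+ cells when set against Sca-1- luminal cells, at 26.8 ± 1.16 against 52.9 ± 19 FPKM (SD, n = 3 each) and a log2 difference of -0.88 ± 0.271 (SE, adjusted p = 0.0316). That call was lost without Sca-1+ luminal library 1 or 2 or Sca-1- luminal library 1 or 3 (adjusted p 0.0579 to 0.106), with only the luminal gates in the fit (adjusted p = 0.073) and with library 3 as the sole Sca-1+ luminal library (-0.92, adjusted p = 0.164).

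Acsl3 (ENSMUSG00000032883.15, chromosome 1, 78657825 to 78707743, plus strand), an acyl-CoA synthetase of lipid droplet formation, and Herc3 (ENSMUSG00000029804.17, chromosome 6, 58831465 to 58920398, plus strand), a HECT and RCC1 domain ubiquitin ligase, passed no test in any of the 6 comparisons. Acsl3 had 27.2 and 12.3 FPKM in stromal libraries, 26.4 and 12.2 in basal libraries, 50.7, 21.7 and 55.2 in Sca-1+ luminal libraries and 59.3, 42.9 and 34.2 in Sca-1- luminal libraries. All 3 Sca-1- luminal libraries lay above the stromal and basal ones, with log2 differences of -1.23 in stromal (adjusted p = 0.0611) and -1.26 in basal cells (adjusted p = 0.0633). These passed the threshold in several alternatives, among them the fits of just the compared gates (adjusted p = 0.0334 in stromal and 0.0361 in basal cells) and without Sca-1+ luminal library 3 (adjusted p = 0.0465 and 0.0467). It shares its start site with Utp14b, which was at 1.69 to 9.61 FPKM in 8 libraries and listed at 0 in Sca-1- luminal libraries 2 and 3, so reads of the 2 genes may have been split differently there. Herc3 had 0.243 and 0.275 FPKM in stromal libraries, 0.869 and 0.431 in basal libraries, 0.943, 1.09 and 2.43 in Sca-1+ luminal libraries and 1.67, 0.557 and 2.28 in Sca-1- luminal libraries. It reached 1 FPKM in 4 libraries, all luminal, on at most 271 fragments, and its stromal against Sca-1- luminal difference of -0.92 missed the threshold (adjusted p = 0.0514). That difference was called in 7 of 19 alternatives, at -1.97 with a pseudocount of 0.1 (adjusted p = 0.0262). Herc3 was also called lower in stromal than in Sca-1+ luminal cells when library 3 stood alone for that gate (-1.45, adjusted p = 0.0321). Nap1l5, which lies inside the Herc3 locus, had its own row at 0.144 to 1.26 FPKM.

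Steap4 (ENSMUSG00000012428.9, chromosome 5, 7960457 to 7982213, plus strand) encodes a metalloreductase of iron and copper that is tied to inflammation and fat metabolism. It had 66.7 and 130.3 FPKM in stromal libraries, 26.4 and 16.4 in basal libraries, 39.6, 33.7 and 3.28 in Sca-1+ luminal libraries and 1.93, 0.586 and 2.04 in Sca-1- luminal libraries. Stromal libraries were the highest and Sca-1- luminal libraries the lowest with no overlap, and Sca-1+ luminal library 3 stood far below the other libraries of its gate. The stromal differences from basal (2.11, adjusted p = 0.135) and Sca-1+ luminal cells (2.37, adjusted p = 0.0934) were not called. The difference from basal cells was called in 1 of 10 fits that left out 1 library and in 2 of 9 other alternatives. The difference from Sca-1+ luminal cells was called without Sca-1+ luminal library 1 (2.95, adjusted p = 0.0313) and not without library 3 (1.33, adjusted p = 0.0714). It was 4.46 with library 3 alone in that gate. Steap4 was higher than in Sca-1- luminal cells by 5.28 ± 0.841 in stromal (SE, adjusted p = 0.00084), 3.17 ± 0.841 in basal (SE, adjusted p = 0.0122) and 2.91 ± 0.752 in Sca-1+ luminal cells (SE, adjusted p = 0.0165). Expressed as means, that is 64.8 times, 14.1 times and 16.8 times the Sca-1- luminal level of 1.52 ± 0.811 FPKM (SD, n = 3). The basal call was lost without basal library 1 (2.85, adjusted p = 0.0854). The Sca-1+ luminal call was lost without Sca-1+ luminal library 2 (2.45, adjusted p = 0.0617) or Sca-1- luminal library 2 (2.61, adjusted p = 0.0565).

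Ndrg1 (ENSMUSG00000005125.13, chromosome 15, 66929318 to 66969640, minus strand) is induced by hypoxia, by differentiation and, in human prostate cells, by androgen. It had the highest mean of the 9 members in each gate other than Sca-1- luminal, with 204 and 385 FPKM in stromal libraries, 338 and 396 in basal libraries and 204, 229 and 59.2 in Sca-1+ luminal libraries. In Sca-1- luminal libraries it had 15.7, 19.7 and 4.55 FPKM, below every other library. Relative to Sca-1- luminal cells it was higher by 4.88 ± 0.673 in basal (SE, adjusted p = 0.000393), 4.50 ± 0.673 in stromal (SE, adjusted p = 0.00062) and 3.51 ± 0.602 in Sca-1+ luminal cells (SE, adjusted p = 0.00297). Basal and stromal cells could not be separated (stromal against basal -0.38, 95% interval -2.03 to 1.27). Differences from Sca-1+ luminal cells were not called, at 1.37 in basal (adjusted p = 0.173) and 0.99 in stromal cells (adjusted p = 0.346). They were 2.61 and 2.22 with library 3 alone in that gate.

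The collagen gene Col1a1 moved with Steap4 among the luminal libraries: it had 359.7, 189.8 and 22.4 FPKM in Sca-1+ luminal libraries, against 3.42, 1.67 and 5.68 in Sca-1- luminal libraries. The stromal libraries had 317 and 314 FPKM, and Sca-1+ luminal library 1 was above both. With library 3 as the sole Sca-1+ luminal library, Steap4 differed from Sca-1- luminal cells by 0.82 (adjusted p = 0.303) and Ndrg1 by 2.28 (adjusted p = 0.0548), and neither was called. Without library 3 the differences were 3.95 (adjusted p = 5.1e-05) and 4.13 (adjusted p = 0.000224). In that gate the fibroblast marker sum moved with the Steap4 level, and its part in the result was not tested. In basal libraries, where Ndrg1 had its highest mean, the 6 fibroblast markers summed to 682 and 492 FPKM, above Sca-1+ luminal library 3 (328) and the Sca-1- luminal libraries (75.3 to 132). The proteoglycan gene Dcn made up most of that sum, at 655 and 459 FPKM, and Col1a1 had 7.16 and 8.77 FPKM. The part of these genes in the Ndrg1 result was not tested.

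**Figure D2:**
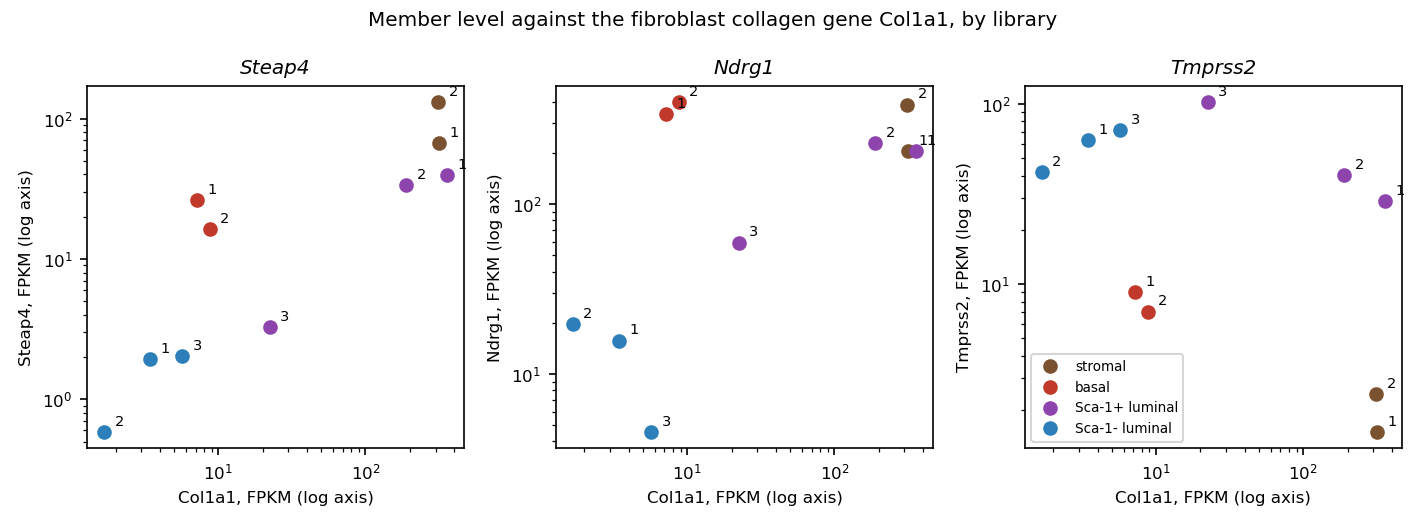
Steap4, Ndrg1 and Tmprss2 (FPKM, log axis) against the fibroblast collagen gene Col1a1 (FPKM, log axis), one point per library, coloured by gate and numbered. Sca-1+ luminal library 3 lies apart from libraries 1 and 2 in each panel. Col1a1 is 1 of the 6 fibroblast markers.

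Camkk2 (ENSMUSG00000029471.13, chromosome 5, 122731170 to 122779409, minus strand) encodes a calcium-dependent kinase that activates AMPK. It had 7.35 and 6.26 FPKM in stromal libraries, 5.06 and 5.98 in basal libraries, 7.57, 7.66 and 2.7 in Sca-1+ luminal libraries and 3.16, 1.29 and 3.96 in Sca-1- luminal libraries. Stromal and basal libraries lay above all Sca-1- luminal ones, with log2 differences of 1.11 (adjusted p = 0.0549) and 0.85 (adjusted p = 0.138) that were not called. The stromal difference was called in 2 of 10 fits that left out 1 library and in 5 of 9 other alternatives. Among these were median-of-ratios scaling (1.19, adjusted p = 0.0412) and quantile normalization (1.11, adjusted p = 0.0363). The Camkk2 value also depended on which transcripts were counted. A transcript of 1165 nt, matched by a shared end, held 0% to 68.1% of the Camkk2 FPKM and was listed at 0 in stromal library 2 and in both basal libraries. The Camkk2 differences from Sca-1- luminal cells were called when Sca-1+ luminal library 3 was left out (1.11 in stromal, adjusted p = 0.0145; 0.85 in basal, adjusted p = 0.0495; 1.25 in Sca-1+ luminal cells, adjusted p = 0.0121), and the Sca-1+ luminal difference was 0.03 with library 3 alone in that gate (adjusted p = 0.974). Without the 1165 nt transcript, an alternative chosen after the data were seen, Camkk2 was called higher than in Sca-1- luminal cells in stromal (1.62, adjusted p = 0.00454), basal (1.73, adjusted p = 0.0037) and Sca-1+ luminal cells (1.06, adjusted p = 0.0308).

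**Figure D3:**
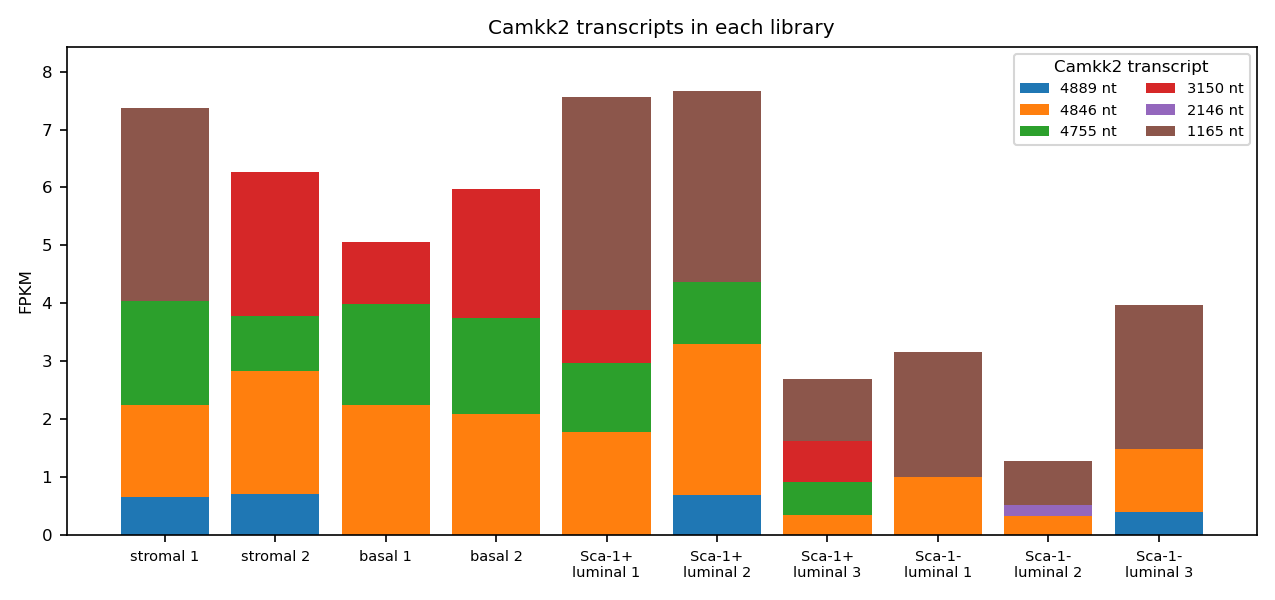
FPKM of each Camkk2 transcript, stacked, in the 10 libraries. The 1165 nt transcript makes up 59.3% to 68.1% of the sum in Sca-1- luminal libraries and is at 0 in basal libraries.

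Read against all genes tested, the counts of called members were near the background or above it, and with 9 genes no difference in share was tested. Sca-1+ against Sca-1- luminal cells gave 3 called members of 9 (2 higher, 1 lower), where 35.3% of all genes tested were called (21.9% higher, 13.4% lower). Basal against Sca-1- luminal cells gave 6 of 9 (2 higher, 4 lower) against 46.2% of all genes (20.2% higher, 26% lower), and stromal against Sca-1- luminal cells gave 6 of 9 (2 higher, 4 lower) against 52.7% (25.2% higher, 27.4% lower). Basal against Sca-1+ luminal cells gave 3 of 9, all lower, against 19.9% (4.39% higher, 15.5% lower), and stromal against Sca-1+ luminal cells gave 3 of 9, all lower, against 13.5% (1.8% higher, 11.6% lower). Stromal against basal cells gave 2 of 9, both lower, against 22.6% (13.5% higher, 9.12% lower). The median log2 difference of the members was 0.01 between Sca-1+ and Sca-1- luminal cells (0.19 over all genes), -1.26 between basal and Sca-1- luminal cells (-0.05 over all genes) and -1.15 between stromal and Sca-1- luminal cells (-0.06 over all genes). Comparisons that involve the same gate share its libraries. The count of called members was 1 without Sca-1+ luminal library 2 between the luminal gates and 1 without basal library 2 between basal and Sca-1+ luminal cells. Between stromal and basal cells it was 4 without Sca-1+ luminal library 3 and 1 in each of 8 other fits that left out 1 library. With library 3 as the sole Sca-1+ luminal library, Steap4 was higher than in that gate by 2.35 in basal and 4.46 in stromal cells. These differences were 0.26 and 2.37 with all libraries of the gate. Ndrg1 was then higher by 2.61 in basal and 2.22 in stromal cells, against 1.37 and 0.99. Between the luminal gates in that fit, Steap4 differed by 0.82, Ndrg1 by 2.28 and Fkbp5 by -0.92, against 2.91, 3.51 and -0.88.

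**Figure D4:**
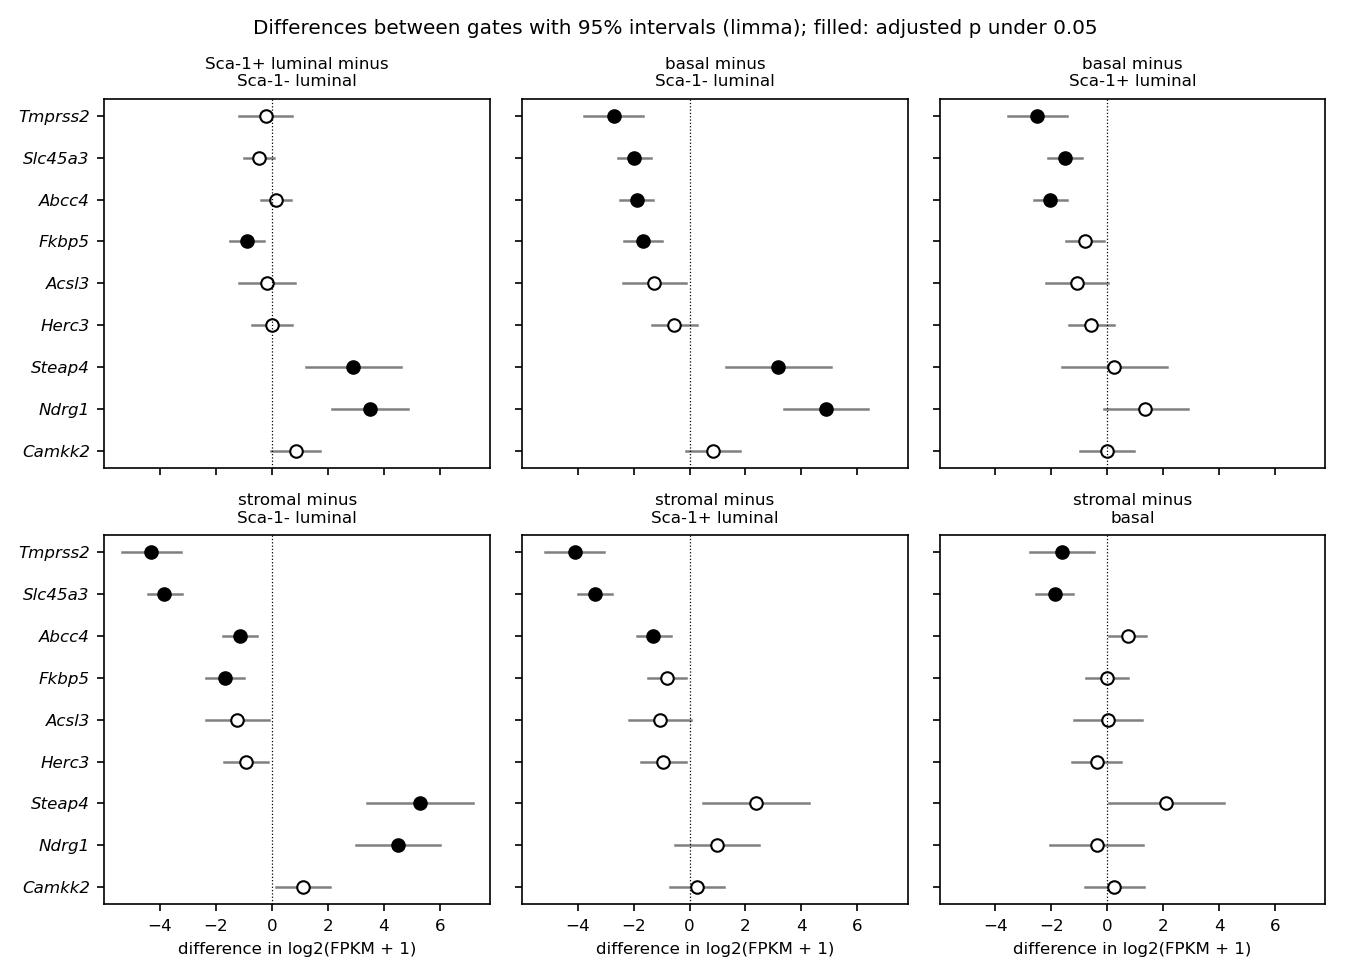
Log2 differences of the 9 members in the 6 comparisons of gates, with 95% intervals from limma; filled points passed an adjusted p under 0.05. Tmprss2, Slc45a3 and Abcc4 lie left of 0 wherever stromal or basal cells are set against a luminal gate, and Steap4 and Ndrg1 lie right of 0 against Sca-1- luminal cells.

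The members' profiles over the 10 libraries were compared by Pearson's r of log2(FPKM + 1), as a description, since all genes of a library share its depth and its cell mixture. The closest pair was Tmprss2 and Slc45a3 at 0.98, followed by Tmprss2 and Herc3 at 0.88, Steap4 and Camkk2 at 0.87 and Steap4 and Ndrg1 at 0.86. The most opposed pair was Fkbp5 and Ndrg1 at -0.91. Among 9007 genes with a gate mean of at least 5 FPKM, Tmprss2 was most like Car2 (0.994) and Arrdc1 (0.990), and Slc45a3 most like Epb41 (0.992) and Pan2 (0.987). Ndrg1 was most like Clic4 (0.994) and the glycolytic enzyme gene Pfkp (0.993), Steap4 most like Kirrel (0.988), Fkbp5 most like Rabep2 (0.992), and Acsl3 most like Sgk1 (0.950), itself a steroid-responsive kinase gene. Abcc4 was most like Pon3 (0.979), Herc3 most like Ints4 (0.963) and Camkk2 most like Btbd1 (0.952).

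Of 24 steroid receptor cofactors and chaperones, 5 were higher and 3 lower in Sca-1+ cells relative to Sca-1- luminal cells, 10 higher and 4 lower in basal than in Sca-1- luminal cells, and 6 higher and 7 lower in stromal than in Sca-1- luminal cells. Of all genes tested, 21.9%, 20.2% and 25.2% were higher and 13.4%, 26% and 27.4% lower in these comparisons. With library 3 alone in the Sca-1+ gate, a setting chosen for these lists after the data were seen, 1 cofactor was higher and 1 lower than in Sca-1- luminal cells. The pioneer factors did not move together. Foxa1 had 3.23 and 5.98 FPKM in stromal libraries, 155 and 98.6 in basal libraries, 49.8, 89 and 167 in Sca-1+ luminal libraries and 87.4, 61.3 and 85.5 in Sca-1- luminal libraries, lower in stromal than in Sca-1- luminal cells by -3.85 (adjusted p = 0.000215) and not called between basal and either luminal gate. Gata2 had 2.97 and 2.79 FPKM in basal libraries and 22 or more in every other library, and was lower in basal than in Sca-1- luminal cells by -3.67 (adjusted p = 1.76e-05). Hoxb13, a homeobox factor of the posterior body and the prostate, was lowest in the stromal gate, with 6.54 and 9.78 FPKM, against 207, 133 and 277 in Sca-1- luminal libraries (-4.46, adjusted p = 6.3e-05). The Sca-1+ luminal gate was below the Sca-1- luminal gate as well (-2.31, adjusted p = 0.00223; -2.73 with library 3 alone, adjusted p = 0.0109). Fkbp4, another Hsp90 co-chaperone of steroid receptors, was lower than in Sca-1- luminal cells in stromal (-2.33, adjusted p = 0.000167) and basal cells (-1.61, adjusted p = 0.00107), as Fkbp5 was. Tgfb1i1, a steroid receptor coactivator of stroma and muscle, was higher in basal than in Sca-1- luminal cells (4.22, adjusted p = 0.000288). It was also higher than in Sca-1- luminal cells in stromal (2.76, adjusted p = 0.00262) and Sca-1+ luminal cells (1.88, adjusted p = 0.0175). The Sca-1+ luminal call was lost in 4 of 10 fits that left out 1 library, and the difference was 0.52 with library 3 alone.

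**Figure D5:**
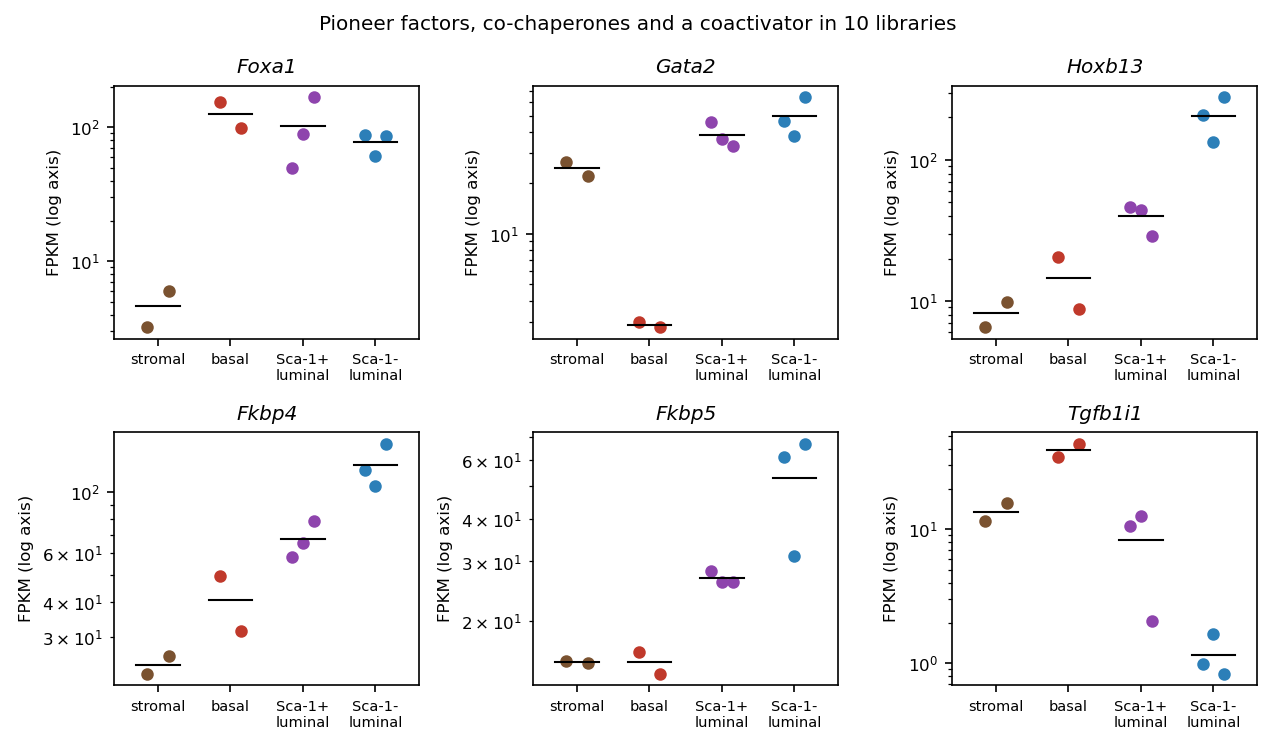
FPKM (log axis) of Foxa1, Gata2, Hoxb13, Fkbp4, Fkbp5 and Tgfb1i1 in the 10 libraries, by gate; points are libraries and bars are gate means. Foxa1 is lowest in stromal libraries and Gata2 in basal libraries, while Hoxb13 and Fkbp4 peak in Sca-1- luminal libraries.

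Of 89 other androgen-response genes, 84 were tested. Sca-1+ against Sca-1- luminal cells gave 25 higher and 13 lower, basal against Sca-1- luminal cells 29 higher and 21 lower, and stromal against Sca-1- luminal cells 21 higher and 29 lower. In the same comparisons 21.9%, 20.2% and 25.2% of all genes tested were higher and 13.4%, 26% and 27.4% lower. No difference in share was tested. With library 3 alone in the Sca-1+ gate, 14 of 83 were higher and 10 lower than in Sca-1- luminal cells, beside 10.3% and 6.16% of all genes. Their medians were 0.39, 0.23 and -0.10, beside 0.19, -0.05 and -0.06 over all genes. The lower group included secretory and luminal genes: Azgp1, a secreted zinc-binding glycoprotein, had 59.9, 70.8 and 35.7 FPKM in Sca-1+ luminal libraries against 472, 397 and 512 in Sca-1- luminal libraries (-3.08, adjusted p = 0.000273), and Spdef, an ETS factor of secretory cells, differed by -2.44 (adjusted p = 0.000526). The higher group included Aldh1a3, a retinaldehyde dehydrogenase (4.52, adjusted p = 0.000781), and Pmepa1, a TGF-beta inhibitor (3.58, adjusted p = 0.000211), and Pmepa1 was higher also in basal (3.86) and stromal cells (4.42) than in Sca-1- luminal cells. Azgp1 (-3.64), Spdef (-2.91), Aldh1a3 (4.98) and Pmepa1 (3.35) were called in the same direction with library 3 alone in the Sca-1+ gate.

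Because Ndrg1 answers to hypoxia and Fkbp5 to glucocorticoid, genes of those responses were counted too. Of 12 hypoxia-responsive genes, 7 were higher and 0 lower in Sca-1+ cells relative to Sca-1- luminal cells, 10 higher and 0 lower in basal than in Sca-1- luminal cells, and 6 higher and 0 lower in stromal than in Sca-1- luminal cells, with medians of 1.05, 2.06 and 1.25, beside 0.19, -0.05 and -0.06 over all genes. The shares of all genes that were higher were 21.9%, 20.2% and 25.2%. With library 3 alone in the Sca-1+ gate, 1 of the 12 was higher than in Sca-1- luminal cells, and Adm (0.88, adjusted p = 0.428), Vegfa (1.16, adjusted p = 0.141) and Egln3 (1.81, adjusted p = 0.226) were no longer called. Egln3, an oxygen-sensing prolyl hydroxylase, had 289 and 264 FPKM in basal libraries against 7.94, 7.84 and 0.427 in Sca-1- luminal libraries (5.84, adjusted p = 0.000229). Adm, the vasodilator adrenomedullin, was higher in basal (4.97, adjusted p = 0.000602) and stromal cells (3.71, adjusted p = 0.00258), and Car9, a carbonic anhydrase, was higher in basal cells (4.37, adjusted p = 0.000123) and not called in stromal cells (-0.35). Of 10 glucocorticoid-responsive genes, 3 were higher and 0 lower in Sca-1+ cells relative to Sca-1- luminal cells, 1 higher and 1 lower in basal than in Sca-1- luminal cells, and 4 higher and 2 lower in stromal than in Sca-1- luminal cells, beside the same shares of all genes. When library 3 stood alone for the Sca-1+ gate, 1 was higher and 1 lower, and Errfi1 and Dusp1 were no longer called (adjusted p = 0.0866 for each). Cebpd was higher in Sca-1+ luminal (2.54, adjusted p = 0.000937; 2.31 with library 3 alone, adjusted p = 0.0113) and stromal cells (3.53, adjusted p = 0.000107), whereas Zbtb16 was lower in stromal cells (-2.21, adjusted p = 0.000608), each against Sca-1- luminal cells.

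Some relatives of the members followed them and others did not. Of the Steap family, Steap3 was higher in stromal than in Sca-1- luminal cells (3.41, adjusted p = 0.000484) as Steap4 was, but stood at 0.296 and 0.469 FPKM in basal libraries. Ndrg3 was lower in basal than in Sca-1- luminal cells (-1.92, adjusted p = 0.00183), the opposite direction to Ndrg1. The efflux pump genes split as well: Abcc1 was higher in basal than in Sca-1- luminal cells (2.72, adjusted p = 0.00016), where Abcc4 was lower, and Abcc3 was lower in stromal than in Sca-1- luminal cells (-3.71, adjusted p = 0.000247). Acsl1 was lower than in Sca-1- luminal cells in basal (-2.51, adjusted p = 0.000338) and stromal cells (-2.10, adjusted p = 0.000859), and the protease gene St14 was lower in stromal cells (-4.15, adjusted p = 0.000196). Of 29 relatives tested, 6 were higher and 2 lower in Sca-1+ luminal, 3 higher and 7 lower in basal and 11 higher and 8 lower in stromal cells, each against Sca-1- luminal cells. Of all genes tested, 21.9%, 20.2% and 25.2% were higher and 13.4%, 26% and 27.4% lower in these comparisons. Between Sca-1+ and Sca-1- luminal cells, Abcc1 differed by 2.56 and Acsl1 by -1.06. With library 3 alone in the Sca-1+ gate these differences were 2.51 and -1.23.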

How the data were processed

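Per the labels' protocols, total RNA was primed with random and poly(dT) primers (NuGEN Ovation), and TruSeq DNA libraries were run on a HiSeq. Strand-specific counting is not given in the sources used here. The submitters' processing notes name bcl2fastq 1.8.3, TopHat, Cufflinks and build mm10. The authors deposited FPKM per transcript for 63241 UCSC transcripts per library.

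Transcripts were named by their coordinates in GENCODE M21 and RefSeq (GRCm38.p6): 53928 (85.3%) matched. Transcripts under 300 nt (8006) were left out and FPKM was summed per gene. Depth came from the FPKM steps of 5735 isolated transcripts, whose low values came within 0.05 of a whole fragment in 92.3% to 94.1% of cases. Fragment numbers given for a gene are approximate.

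limma 3.58.1 in R 4.3.3 was run on log2(FPKM + 1) of genes that reached 1 FPKM in 2 or more libraries, with a mean per gate over all 10 libraries, trended eBayes and 6 residual degrees of freedom. It was tested on simulated data. Groups came from the gate in the labels, and replicate numbers follow listing order. The genes studied, the context lists and the tests were chosen with earlier results of these data known. Context genes named are the called genes with the largest differences, at most 4 per list and direction; some genes that fall under this rule are not reported here. Alternatives covered pseudocounts of 0.1 and 5, the filter, 2 scalings, library weights, transcript length, gates fitted in pairs and left-out libraries. Figures were made with matplotlib 3.10.9.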

Additional observations from a re-analysis of the deposited data

Results flagged for a closer look

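A transcript of 4317 nt inside the Fkbp5 locus (chromosome 17, 28420075 to 28424391) could not be matched to a gene and entered no comparison, yet carried signal in every library. It had 0.269 to 1.02 FPKM over the 10 libraries, far below the Fkbp5 transcript itself. It was not added to Fkbp5.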

How the results depend on the processing

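No paired analysis was possible because the labels give no replicate numbers. Of 1053 values of members under an alternative, 943 kept their direction and side of the threshold, 29 lost a call, 50 gained one and 31 changed sign, and 0 of those 31 were called in either fit. The cause of these changes was not tested. Between Sca-1+ and Sca-1- luminal cells, 3 members were called, 6 with library weights, 0 with library 3 alone in the Sca-1+ gate and 1 to 4 without 1 library; of all genes 4396 were called, against 6737, 2010 and 2728 to 5217. Basal against Sca-1- luminal cells gave 6 members (5 to 8 without 1 library) and 5758 genes (3719 to 6449). Basal against Sca-1+ luminal cells gave 3 members (1 to 4 without 1 library). It gave 2478 genes (1270 with only these gates fitted, 5853 with weights, 593 to 3589 without 1 library). Stromal against Sca-1- luminal cells gave 6 members (6 to 9) and 6564 genes (4357 to 7092). Stromal against Sca-1+ luminal cells gave 3 members (6 with library 3 alone, 2 to 4 without 1 library) and 1677 genes (630 with only these gates, 3103 with weights, 3791 with library 3 alone, 379 to 3042 without 1 library). Stromal against basal cells gave 2 members, 1 with a pseudocount of 5, no filter or transcripts of any length, 4 with only these gates or with weights and 1 to 4 without 1 library, and 2823 genes (1148 to 3593).

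Signs changed only for uncalled differences. Between the luminal gates, leaving out 1 library gave Tmprss2 -0.73 to 0.16, Herc3 -0.30 to 0.24, Acsl3 -0.40 to 0.25 and Abcc4 -0.09 to 0.28. With library 3 alone Tmprss2 was 0.82 and Acsl3 0.31. Herc3 was 0.00 with a pseudocount of 5, -0.08 scaled by the median of ratios, -0.34 under quantile normalization and -0.24 with weights, and Abcc4 was -0.01 and -0.17 under the same scalings. Basal against Sca-1+ luminal, Steap4 was -0.51 with weights and -0.78 to 0.84 without 1 library, and Camkk2 was -0.03 with a pseudocount of 5, -0.34 with weights and -0.40 to 0.21 without 1 library. Stromal against Sca-1+ luminal, Camkk2 was -0.08 with weights and -0.15 to 0.47 without 1 library. Stromal against basal, Fkbp5 was -0.08 and Acsl3 -0.07 with quantile normalization, Camkk2 was -0.11 without the shared-end transcript, and without 1 library Fkbp5 was -0.10 to 0.10, Ndrg1 -0.84 to 0.07 and Acsl3 -0.52 to 0.57.

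Scaling shifted the share of calls that were higher: from 61.99% between the luminal gates it went to 48.68% (median of ratios) and 40.45% (quantiles), with 22.07%, 35.79% and 53.25% for basal against Sca-1+ luminal cells and 13.42%, 25.75% and 37.8% for stromal against Sca-1+ luminal cells. The median of all genes moved by -0.15, 0.18 and 0.22 in these comparisons for the median of ratios and by -0.28, 0.38 and 0.25 for quantiles. Herc3, Camkk2 (62 to 562 fragments per library), Abcc4 in basal cells, Tmprss2 in stromal cells and Steap4 in Sca-1- luminal cells rest on few fragments.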
